A study of Mus musculus with 8 samples.

Results

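The nuclear genes that encode subunits of the oxidative phosphorylation machinery were examined in mouse intestinal organoids cultured with or without RANKL. Members were chosen by name, as protein-coding genes of the count table whose symbols carry the Nduf, Sdh, Uqcr, Cox or Atp5 prefixes of complexes I to V, leaving out pseudogenes and Ndufaf assembly factors. The rule selected 85 of 54532 listed genes, under 84 symbols, since Atp5o has 2 identifiers. Among them, 35 belong to complex I, 4 to complex II, 8 to complex III, 18 to complex IV and 17 to complex V. The other 3 (Cox7a2l, Atp5s and Ndufa4l2) match the rule by name but are related proteins rather than constitutive subunits. Ndufa4 was counted with complex IV, where the protein it encodes is now placed. The study asked how stimulation of the receptor RANK by its ligand RANKL changes gene expression in intestinal epithelium.

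Bulk 3′ mRNA sequencing (QuantSeq, which reads each transcript next to its poly(A) tail) covered 4 control libraries and 4 libraries of organoids given recombinant RANKL. All cultures were mouse epithelial organoids grown from isolated crypts in the same kind of medium with EGF, NOGGIN and R-spondin, and the labels name no genotype, strain, sex or age that differs between the groups. The dose and the duration of RANKL for these libraries are not given in the sources used here. Nothing states whether the 4 libraries of a group came from separate mice or cultures, so p-values measure only the spread between these libraries, which may be technical. Total counts ran from 583663 to 7807298 per library, with a median of 3911808 for controls and 1613410 for RANKL cultures, and the deepest library (control 1) held 13.4 times the counts of the shallowest (control 4). A count of 0 allows up to 5.14 CPM (reads of a gene scaled for library size) in control 4 and 0.384 CPM in control 1, for counting error only. Since each transcript is read at its 3′ end, CPM does not scale with transcript length.

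Oxidative phosphorylation takes electrons from NADH at complex I and from succinate at complex II, passes them through ubiquinone, complex III and cytochrome c to oxygen at complex IV, and uses the proton gradient built on the way to make ATP at complex V. A few subunits are encoded by mitochondrial DNA and the rest, all of complex II included, by the nucleus. In the intestine the absorptive cells of the villus use this ATP for ion and nutrient transport, while crypt cells also rely on glycolysis. The authors removed reads of the mitochondrial chromosome before counting, and the 13 mitochondrial coding genes held 0.0223% to 0.0368% of the counts in each library, so that the mitochondrially encoded subunits are not described here.

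Nuclear OXPHOS promoters are known for binding sites of NRF1, of ETS factors such as GABP, of YY1 and of oestrogen-related receptors (ERR). RefSeq windows of 300 bases (250 before and 50 after the start, GRCm38.p6) matched 68 of the 84 symbols, as 73 windows. The NRF1 motif GCGCNTGCG, searched on both strands as for all motifs, lay in 32.9% of the member windows and in 8.61% of 21263 windows of coding genes. CCGGAAG for GABP and other ETS factors lay in 21.9% against 11.6%, AAGATGGC for YY1 in 13.7% against 3.05%, and AAGGTCA for ERR in 11.0% against 4.08%. GGGANTTCC, a form of the NF-kB motif, lay in 2.74% against 1.84%. These shares describe letters in windows, and none of the motifs contains another. The stretches below show 1 example of each of the 3 motifs that a printed stretch held, among them the promoters of Sdhd and Atp5g3, to which the results return, and the promoter of Cox8a, whose window holds a GABP/ETS motif that is not whole within the printed stretch. Each is the stretch outside annotated exons nearest to the start, written 5′ to 3′ on the gene's strand, with motif matches in capitals. Each label names the motif in the printed stretch, and the windows of Sdhd (NRF1, ERR) and Atp5g3 (NRF1) hold others outside it.
Ndufa11, NRF1 motif, chr17:56717686-56717761, plus strand: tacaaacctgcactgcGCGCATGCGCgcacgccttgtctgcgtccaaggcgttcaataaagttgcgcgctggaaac
Sdhd, GABP/ETS motif, chr9:50603850-50603909, minus strand: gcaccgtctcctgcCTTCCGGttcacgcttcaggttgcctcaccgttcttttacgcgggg
Atp5g3, ERR motif, chr2:73911327-73911426, minus strand: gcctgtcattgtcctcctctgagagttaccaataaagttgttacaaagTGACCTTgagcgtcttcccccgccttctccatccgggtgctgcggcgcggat
Cox8a, no whole motif in the stretch, chr19:7217617-7217716, minus strand: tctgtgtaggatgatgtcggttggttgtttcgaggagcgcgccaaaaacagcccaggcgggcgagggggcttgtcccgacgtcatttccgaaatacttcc

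Subunit genes changed little after RANKL. Of the 85 members, 74 passed edgeR's filter on low counts, and 10 of these passed an adjusted p of 0.05 (edgeR quasi-likelihood test, Benjamini-Hochberg over 9971 genes), which is 13.5% against 25.9% of all genes tested. Higher with RANKL were 3 members (4.05%, against 13.6% of all genes) and lower were 7 (9.46%, against 12.4%). Scaled by library totals alone, the split was 4 higher and 4 lower. It also changed when single libraries were left out: without RANKL 4 there were 0 higher and 3 lower, without control 1 there were 8 higher and 5 lower, and 4 were lower without RANKL 2 or without RANKL 3. The share of all genes called was not taken in these other fits. Whether such shifts are particular to the members was therefore not tested. Among the 55 members with a mean of at least 100 CPM, 9 were called, which is 16.4% against 39.8% of all genes at that level. Values of the 2 groups did not overlap for 7 of the 74 tested members (9.46%), against 24.6% of all genes, which were not matched for level.

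The sizes were small as well. The median log2 fold change of the 74 tested members was 0.02, with the middle 50% of them between -0.11 and 0.14 and the extremes at -0.53 and 0.48. No tested member moved by more than 1.5-fold, as 16.7% of all genes did, and the middle 50% of all genes ran from -0.26 to 0.26. For 63 of the 74 the 95% interval of the fold lay within 1.5-fold in either direction, so changes larger than that are outside the interval for most members. For 7 members that did not pass the threshold the interval reached beyond 1.5-fold, among them Sdhd and Atp5g1, and for these the data leave the size of a change unknown.

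**Figure D1:**
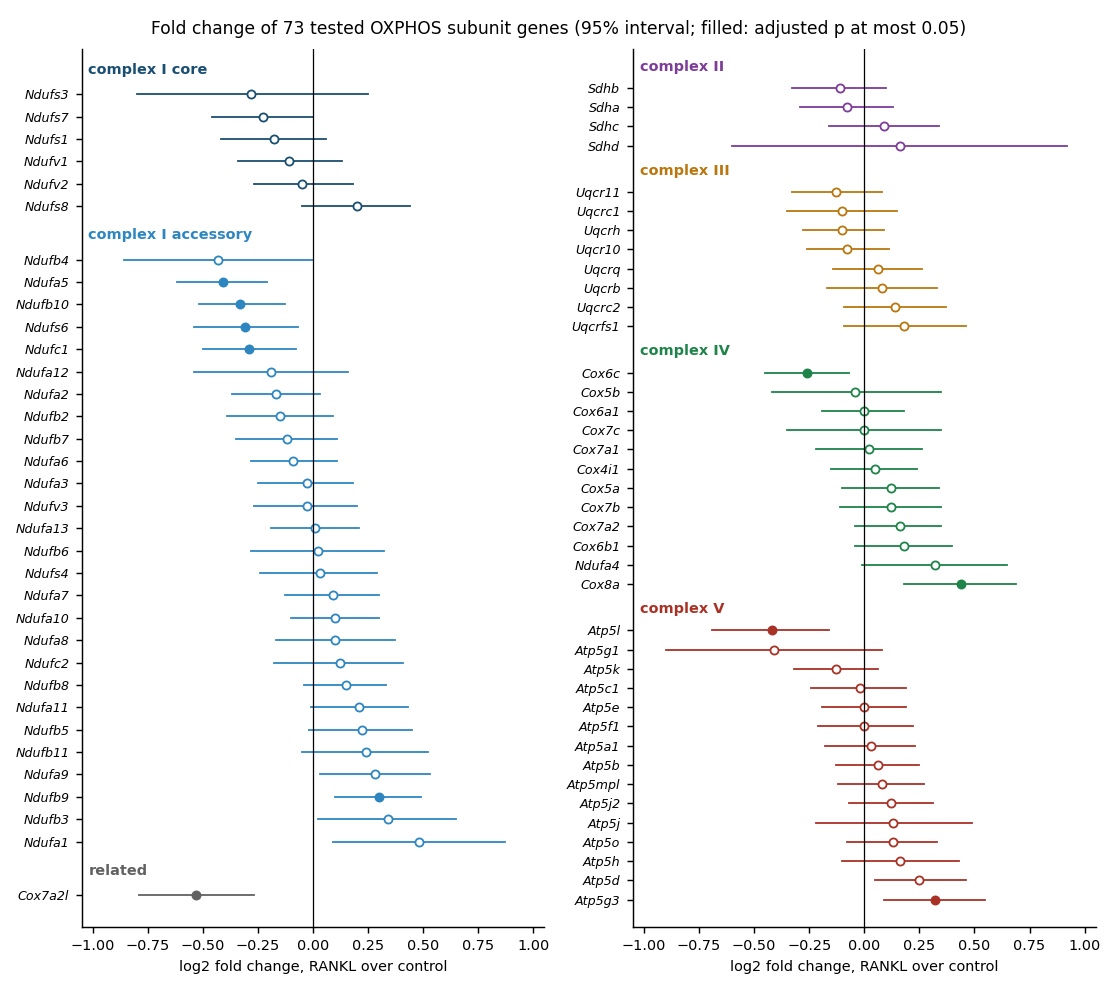
Log2 fold change of 73 of the 74 tested members, RANKL over control (x axis), with its 95% interval from the edgeR fit, grouped by complex; filled points passed an adjusted p of 0.05. Filled points are 10, lie between -0.53 and 0.44, and are absent from complex I core, complex II and complex III.

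**Figure D2:**
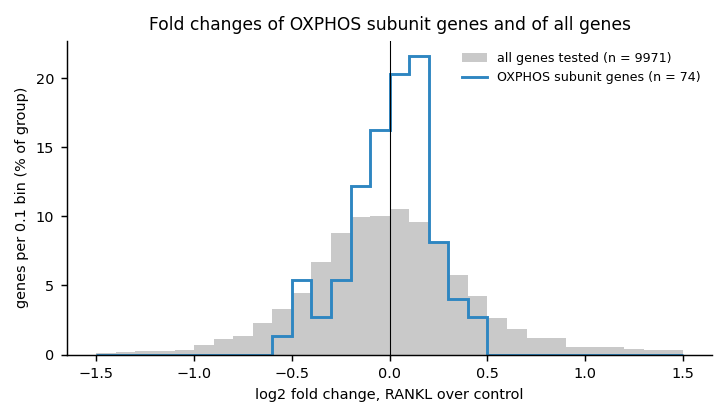
Share of genes in bins of 0.1 on the log2 scale for the 74 tested members (line) and the 9971 genes tested (grey area; 240 of them lie outside the plotted range). The members crowd around 0, with none beyond -0.53 or 0.48. All genes tested were not matched to the members for level.

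Complex I, NADH dehydrogenase, had the most tested members, 34, of which 1 was higher and 4 were lower. That is 14.7%, against 25.9% of all genes tested, and the median log2 fold change was -0.01. Its 7 nuclear core subunits, which hold the flavin and the iron-sulfur clusters and the quinone site next to them, gave 0 calls and ran from -0.28 (Ndufs3) to 0.20 (Ndufs8). The calls were all among the 27 tested accessory subunits (18.5% of these), which surround the core.

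Ndufb10, an accessory subunit of the membrane arm, gave the most stable difference of the family. It stood at 283, 293, 281 and 292 CPM in controls 1 to 4 and at 231, 242, 228 and 214 CPM in RANKL 1 to 4. Every RANKL library was lower than every control library. The means were 287 ± 6.10 and 229 ± 11.5 CPM (SD, n = 4 in both groups), and the log2 fold change was -0.33 (SE 0.10, adjusted p = 0.010). The exact permutation test gave p = 0.0286, the smallest that 70 assignments allow. Ndufb10 (chr17:24722060-24724478, minus strand, GRCm38) was the only called member that passed the threshold in each of the 16 other fits.

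Ndufa5 (chr6:24518666-24528013, minus strand), an accessory subunit of the peripheral arm, had the highest level among the lower complex I genes. Its values were 759, 596, 694 and 605 CPM in controls 1 to 4 and 465, 463, 580 and 487 CPM in RANKL 1 to 4. The groups did not overlap, and RANKL 3 and control 2 came closest to each other. The log2 fold change was -0.41 (SE 0.10, adjusted p = 0.0027), and it lost its call only with the library total as a covariate (-0.31, adjusted p = 0.053).

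Ndufc1 and Ndufs6 fell by 0.29 and 0.31 on the log2 scale (SE 0.10 and 0.11, adjusted p = 0.039 and 0.048) and were less stable. Ndufc1, a small membrane-arm subunit, had 210, 182, 211 and 177 CPM in controls 1 to 4 and 145, 162, 167 and 165 CPM in RANKL 1 to 4, with no overlap. Ndufs6, a zinc-binding accessory subunit of the NADH-oxidising end, had 295, 323, 450 and 358 CPM in controls and 320, 293, 287 and 260 CPM in RANKL libraries. Control 3 was the highest for Ndufs6, the groups overlapped, and without control 3 the log2 fold change was -0.16 (adjusted p = 0.26). Each of these 2 genes lost its call in 9 of the 16 other fits. These included the fits without control 1, control 3 or any 1 of the RANKL libraries for Ndufc1 (adjusted p between 0.065 and 0.11), which stood at -0.19 (adjusted p = 0.31) with the library total as a covariate, and without control 4 or RANKL 2, 3 or 4 for Ndufs6 (adjusted p between 0.073 and 0.17).

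In the opposite direction, Ndufb9 (chr15:58933756-58939488, plus strand), an accessory subunit of the LYR family, had 520, 485, 508 and 471 CPM in controls 1 to 4 and 583, 573, 583 and 702 CPM in RANKL 1 to 4. All RANKL libraries were above all control libraries, RANKL 4 by the widest margin. The log2 fold change was 0.30 (SE 0.10, adjusted p = 0.020), and without RANKL 4 it was 0.22 (adjusted p = 0.12). Exons of Ndufb9 overlap those of the annotated gene Gm49356 on the same strand, so its count is uncertain.

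Among the accessory subunits that did not pass, Ndufa2 had the highest CPM, with 809, 722, 972 and 781 CPM in controls and 686, 741, 767 and 729 CPM in RANKL libraries (log2 -0.17, SE 0.10, adjusted p = 0.22). Ndufa1, a small membrane subunit required for complex I assembly, had the largest positive value of all tested members at 0.48 (SE 0.19, adjusted p = 0.063). It had 113, 59.0, 41.1 and 68.8 CPM in controls 1 to 4 and 84.0, 94.3, 104 and 114 CPM in RANKL 1 to 4. Control 1 lay with the RANKL libraries and the other 3 controls lay below them. Without control 1 the log2 fold change was 0.93 and the call was made. Ndufs5 was under the filter, with 0.00 to 2.06 CPM per library.

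Complex II, succinate dehydrogenase, also acts in the tricarboxylic acid cycle, and none of its 4 subunits passed the threshold. Sdha, the flavoprotein, had 279, 328, 255 and 267 CPM in controls 1 to 4 and 229, 290, 265 and 281 CPM in RANKL 1 to 4. Sdhb, the iron-sulfur subunit, had 462, 373, 321 and 337 CPM and 334, 334, 371 and 348 CPM. Sdhc, a membrane anchor, had 187, 171, 123 and 163 CPM and 179, 149, 165 and 197 CPM. The groups overlapped for these 3, and their log2 fold changes lay between -0.11 and 0.09, with 95% intervals from -0.33 to 0.34.

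Sdhd, the other membrane anchor, was the member whose result depended most on a single library. It had 55.0 CPM in control 1, against 11.0, 8.11 and 10.3 CPM in controls 2 to 4, and 22.6, 31.7, 25.6 and 31.9 CPM in RANKL 1 to 4. The 4 RANKL libraries all lay above 3 of the controls and below the fourth. Its counts were 432, 41, 32 and 6 in controls 1 to 4 and 14, 46, 49 and 58 in RANKL 1 to 4, so that the value in control 1 is not one of low counts. Over the 8 libraries the log2 fold change was 0.16 (SE 0.37, 95% interval -0.60 to 0.92, adjusted p = 0.80). Without control 1 it was 1.56 (adjusted p = 2.4e-06), and with the library total as a covariate it was 2.14 (adjusted p = 0.0058). Control 1 is also the deepest library, and the part of depth in this value was not tested further. The gene lies at chr9:50596357-50603812 on the minus strand of GRCm38, its last 300 transcript bases shared no 50-base word with another gene, and the GABP/ETS motif printed above stands before its start.

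**Figure D3:**
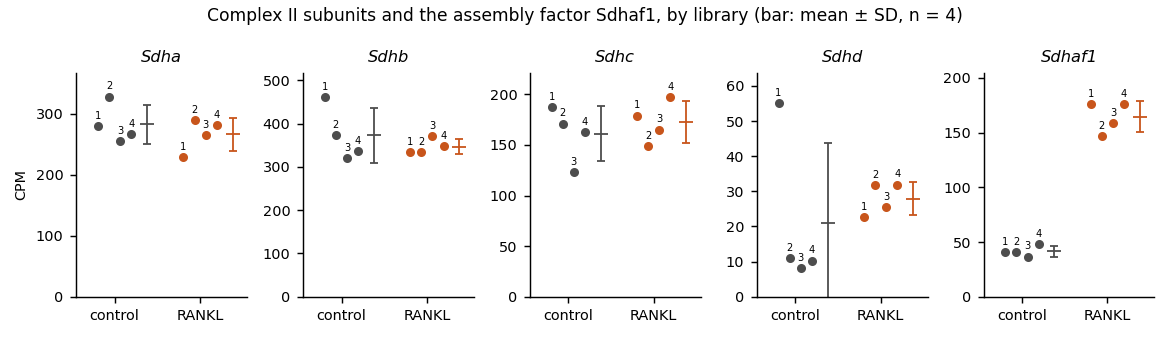
CPM (y axis, from 0) of the 4 complex II subunits and of the assembly factor Sdhaf1 in each library, control in grey and RANKL in orange, with the replicate number at each point and mean ± SD beside them (the lower arm for Sdhd in controls is cut at 0). Sdha, Sdhb and Sdhc overlap between groups, Sdhd has control 1 at 55.0 above all others, and the RANKL libraries of Sdhaf1 (147 to 176) stand apart from its controls (36.7 to 48.2).

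The gene that moved most in this neighbourhood was not a subunit. Sdhaf1 (chr7:30321406-30323895, minus strand), which helps insert the iron-sulfur clusters of Sdhb, had 40.7, 40.5, 36.7 and 48.2 CPM in controls 1 to 4 and 176, 147, 159 and 176 CPM in RANKL 1 to 4. It was 4.07-fold higher with RANKL in the edgeR fit (log2 2.03, SE 0.12, adjusted p = 2.0e-14), with no overlap, and leaving out any library kept it between 1.98 and 2.08. Sdhb, whose protein it matures, had a log2 fold change of -0.11 with a 95% interval of -0.33 to 0.10 in the same libraries. The other listed Sdhaf genes did not pass the threshold. Their log2 fold changes were 0.24 (Sdhaf2, adjusted p = 0.55), -0.36 (Sdhaf3, adjusted p = 0.36) and 0.43 (Sdhaf4, adjusted p = 0.32).

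Complex III, the cytochrome bc1 complex, had 8 tested members, 0 calls and a median log2 fold change of -0.01. The values ran from -0.13 (Uqcr11) to 0.18 (Uqcrfs1, the Rieske iron-sulfur protein), and the 95% interval of each of the 8 lay within 1.5-fold. Uqcrh, the hinge protein, had the highest CPM of the complex, with 1897, 1901, 2085 and 2072 CPM in controls 1 to 4 and 1910, 1915, 1932 and 1675 CPM in RANKL 1 to 4. RANKL 4 was the lowest of the 8 and the other 3 RANKL libraries lay within the control range. Cyc1, the haem-carrying cytochrome c1 of the same complex, is outside the naming rule. It had 159, 155, 149 and 141 CPM in controls and 80.7, 112, 138 and 138 CPM in RANKL libraries, a log2 fold change of -0.33 (SE 0.12, adjusted p = 0.044) that was -0.23 (adjusted p = 0.17) without RANKL 1. The call was also lost without control 1, control 2 or RANKL 2 (adjusted p between 0.081 and 0.14), and with the library total as a covariate the value was -0.19 (adjusted p = 0.39). Cyc1 was not called by the DESeq2 Wald test either (adjusted p = 0.065).

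Complex IV, cytochrome c oxidase, had 1 member higher and 1 lower among 12 tested (16.7%, against 25.9% of all genes), with a median of 0.08. Cox8a (chr19:7215153-7217616, minus strand), the widely expressed form of subunit 8, rose with a log2 fold change of 0.44 (SE 0.13, adjusted p = 0.0097). It had 359, 365, 241 and 303 CPM in controls 1 to 4 and 415, 364, 393 and 548 CPM in RANKL 1 to 4. The groups overlapped at a single pair of libraries, control 2 and RANKL 2, RANKL 4 was the highest, and without RANKL 4 the change was 0.29 (adjusted p = 0.11). Cox6c, a small structural subunit with the highest CPM of the complex, had 1701, 1399, 1507 and 1353 CPM in controls and 1275, 1176, 1303 and 1234 CPM in RANKL libraries. Its groups did not overlap and the log2 fold change was -0.26 (SE 0.09, adjusted p = 0.040), a call that was lost in 8 of the 16 other fits, among them those without control 1 or without any 1 of the RANKL libraries (adjusted p between 0.060 and 0.16). Of the 50-base words in the last 300 transcript bases of Cox6c, 34.9% also occur in other annotated genes, so that reads from the copies could be lost or shared.

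Several complex IV subunits exist as isoforms with tissue preferences, and the organoids used the widely expressed ones. Cox4i1 averaged 405 ± 36.2 CPM without and 422 ± 16.1 CPM with RANKL (SD, n = 4), while Cox4i2, the form of lung and hypoxic cells, had 0 counts in all 8 libraries, which allows up to 0.137 CPM over them. Cox6a1 (418 to 463 CPM in controls, 410 to 446 with RANKL) and Cox6b1 (518 to 663, 588 to 834) stood beside Cox6a2 and Cox6b2 at no more than 0.522 CPM in any library. Cox8b, Cox8c and Cox7b2 also had 0 counts. Cox7a1, usually described as the form of heart and skeletal muscle, was the exception: it had 76.5 to 84.4 CPM in controls and 71.0 to 90.7 CPM with RANKL, beside 296 to 332 and 328 to 392 CPM of Cox7a2. None of the isoforms named here other than Cox8a passed the threshold.

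Cox7a2l (chr17:83501918-83517330, minus strand), a relative of the subunit 7a isoforms, had the largest fall of all tested members. The function of its protein in these organoids was not tested. It stood at 204, 160, 252 and 165 CPM in controls 1 to 4 and at 115, 145, 153 and 129 CPM in RANKL 1 to 4. No RANKL library reached the lowest control. The log2 fold change was -0.53 (SE 0.13, adjusted p = 0.0022), the exact permutation test gave p = 0.0286, and the call was lost only with the library total as a covariate (-0.39, adjusted p = 0.071). The other related members were under the filter, Atp5s with 0.00 to 4.94 CPM per library and Ndufa4l2, which is known from hypoxic cells, with 0 counts.

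Complex V, ATP synthase, had 1 member higher and 1 lower among 15 tested (13.3%, against 25.9% of all genes), with a median of 0.06. The catalytic subunit Atp5b had 772 to 944 CPM in controls and 856 to 918 CPM with RANKL, and Atp5a1, its partner in the F1 head, 993 to 1347 and 1025 to 1273 CPM. Their log2 fold changes were 0.06 and 0.03, with intervals of -0.13 to 0.25 and -0.18 to 0.23. Atp5l, subunit g of the membrane part, had 72.1, 69.2, 77.8 and 77.4 CPM in controls 1 to 4 and 43.6, 62.6, 57.4 and 51.1 CPM in RANKL 1 to 4. The groups did not overlap (log2 -0.42, SE 0.13, adjusted p = 0.015), and without RANKL 4 the change was -0.38 (adjusted p = 0.063). Since 70.1% of the words in the last 300 bases of Atp5l also occur in other genes, its level is uncertain.

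The proton-carrying c ring of ATP synthase is made from 3 genes, Atp5g1, Atp5g2 and Atp5g3, whose mature proteins are the same. Atp5g3 had most of the reads counted for the 3, with 1841, 1707, 1212 and 1543 CPM in controls 1 to 4 and 1889, 1763, 1893 and 2313 CPM in RANKL 1 to 4. Control 3 was the lowest and RANKL 4 the highest, and control 1 lay above RANKL 2. The rise was 0.32 (SE 0.11, adjusted p = 0.035), and it was 0.21 (adjusted p = 0.11) without control 3 and 0.23 (adjusted p = 0.17) without RANKL 4, and was also lost without control 4, RANKL 1 or RANKL 3 (adjusted p between 0.052 and 0.063). Atp5g1 had 15.8 to 32.8 CPM in controls and 9.69 to 22.5 CPM with RANKL (log2 -0.41, SE 0.24, adjusted p = 0.22), and Atp5g2 was under the filter with at most 3.23 CPM. Of the 50-base words at the 3′ ends, 36.0% of those of Atp5g1 and 55.5% of those of Atp5g2 also occur in other genes, against 0% for Atp5g3, so the counts of the first 2 are uncertain and the shares of the 3 genes cannot be read from them.

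**Figure D4:**
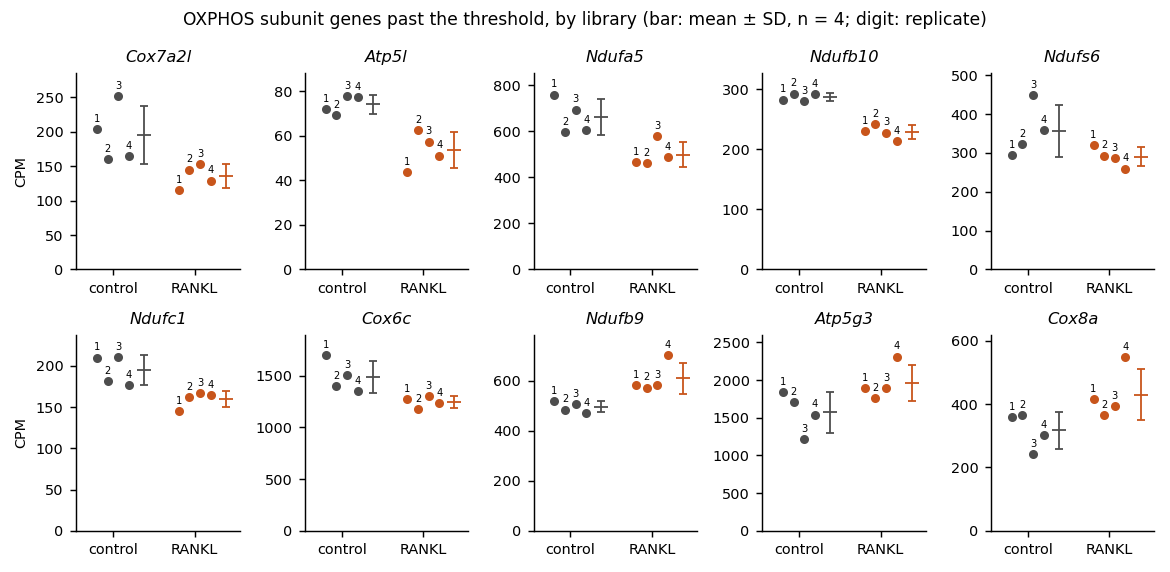
CPM (y axes, from 0) in each library for the 10 members past the threshold, control in grey and RANKL in orange, with the replicate number at each point and mean ± SD (n = 4) beside them. The groups overlap for Ndufs6, Atp5g3 and Cox8a, and RANKL 4 is the highest library for Ndufb9, Atp5g3 and Cox8a.

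Summed over its subunit genes, the complexes differed little between the groups. Complex I summed to 7375 ± 159 CPM without and 7255 ± 193 CPM with RANKL (SD, n = 4), complex III 4039 ± 102 and 3906 ± 98.5 CPM, and complex IV 4457 ± 352 and 4532 ± 229 CPM. Complex II held 838 ± 121 and 814 ± 38.7 CPM. For complex V the sums were 8299 ± 354 and 8928 ± 680 CPM, a ratio of 1.08, with RANKL 4 at 9940 CPM above the 7814 to 8713 CPM of the other 7 libraries. The ranges of the groups overlapped for each of the 5 complexes. The 85 members together took 2.37% to 2.75% of the counts of each library. In bulk samples, fewer cells of a type and less RNA per cell cannot be told apart.

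**Figure D5:**
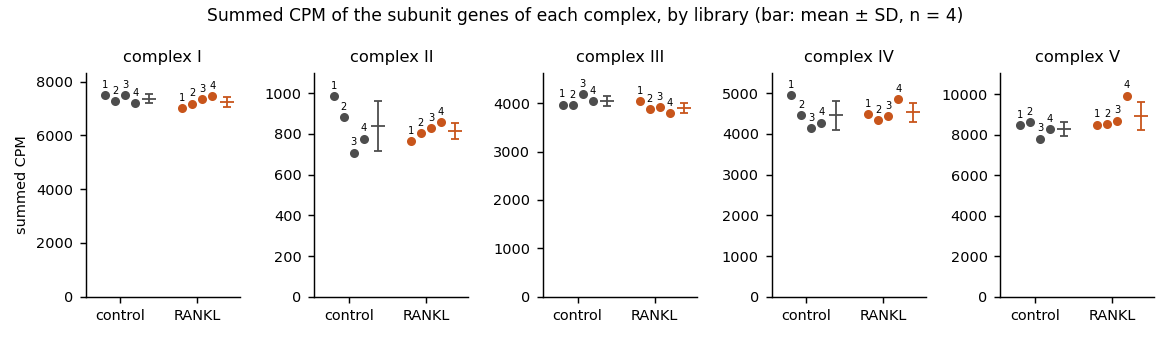
Summed CPM of the subunit genes of each complex (y axes, from 0) by library, control in grey and RANKL in orange, with mean ± SD (n = 4). The groups overlap in each panel, and RANKL 4 is the highest point of complex V at 9940 CPM.

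Members deviated together in certain libraries of each group. Control 1 was the highest of the controls for 33 of the 74 tested members (44.6%, against 21.6% of all genes tested), and control 3 was the lowest for 34 (45.9%, against 27.2%). In the RANKL group, RANKL 4 was the highest for 34 (45.9%, against 25.1%) and RANKL 1 the lowest for 31 (41.9%, against 30.5%). The median deviations of the members from their group means were no larger than 0.08 on the log2 scale in size, between -0.08 in control 3 and 0.07 in control 1. The 8 higher calls without control 1 were Sdhd, Ndufa1, Ndufb3, Ndufa4 and Uqcrfs1 beside Ndufb9, Cox8a and Atp5g3.

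Called members were found with and without each of the NRF1, GABP/ETS, YY1 and ERR motifs. Of 21 tested members with an NRF1 motif in a window, 1 was higher and 4 were lower, with a median log2 fold change of -0.08, and of 41 without it 1 was higher and 2 were lower, with a median of 0.03. With the GABP/ETS motif, 1 of 16 was higher and 1 lower (median 0.00), against 1 and 5 of 46 without it (median 0.02). For YY1, 0 of 10 were higher and 2 lower (median 0.01), against 2 and 4 of 52 (median 0.01), and for ERR 1 of 7 was higher and 1 lower (median -0.13), against 1 and 5 of 55 (median 0.02). Neither of the 2 members with the NF-kB motif was called. Of all genes tested, 13.6% were higher and 12.4% lower. The called members Ndufb9 and Cox6c had no promoter window and do not enter these counts. The counts are a description without a test.

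Lists of factors and pathways around the subunits had from 12.5% (cristae organisation, redox defence) to 37.5% (carriers) of their tested genes called. The share of all genes tested was 25.9%. Among 15 listed regulators of mitochondrial biogenesis 12 were tested, 1 was higher and 3 were lower (33.3%). Gabpa, the DNA-binding subunit of GABP, had 13.8, 24.4, 21.3 and 25.8 CPM in controls and 8.07, 13.1, 10.4 and 12.6 CPM with RANKL (log2 -0.79, SE 0.24, adjusted p = 0.016). Gabpb1, its activating partner, had 8.40, 5.90, 4.31 and 5.16 CPM in controls and 11.3, 11.7, 9.39 and 14.3 CPM with RANKL (log2 0.87, SE 0.28, adjusted p = 0.022). The 2 subunits of the same factor thus moved in opposite directions, both without overlap and both at low counts. Gabpa lost its call without control 2 or RANKL 3 (adjusted p = 0.065 and 0.058) and in the limma-voom fit (adjusted p = 0.075). Gabpb1 lost its call without control 3, RANKL 2 or RANKL 4 (adjusted p = 0.072, 0.055 and 0.13) and in the DESeq2 Wald test (adjusted p = 0.059). The annotated 5′ end of Gabpa overlaps that of the complex V gene Atp5j on the opposite strand, and Atp5j had a log2 fold change of 0.13 (adjusted p = 0.62).

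The coactivators of the PGC family fell in part. Ppargc1b had 123, 113, 164 and 129 CPM in controls and 82.3, 78.5, 77.2 and 82.4 CPM with RANKL (log2 -0.73, SE 0.13, adjusted p = 4.0e-05), with no overlap. Pprc1 fell by 0.59 on the log2 scale (SE 0.18, adjusted p = 0.014), with overlap between the groups, and stood at -0.25 (adjusted p = 0.49) with the library total as a covariate, while Ppargc1a stood at 0.22 (SE 0.25, adjusted p = 0.56). Of the other regulators whose motifs were searched, Nrf1 gave -0.07, Yy1 -0.15 and Esrra -0.12, and these 3 did not pass the threshold.

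Of 48 listed assembly factors 43 were tested, 3 were higher and 5 lower (18.6%), with a median of 0.03. Beside Sdhaf1, the complex IV assembly factor Coa5 rose from 104 ± 8.62 to 198 ± 29.1 CPM (SD, n = 4; log2 0.91, SE 0.11, adjusted p = 2.5e-07), and Coa7, another assembly factor of that complex, fell from 65.4 ± 12.2 to 39.3 ± 6.39 CPM (log2 -0.73, SE 0.15, adjusted p = 0.00036). In the same libraries the complex IV subunits Cox4i1, Cox5a and Cox5b had log2 fold changes of 0.05, 0.12 and -0.04, none past the threshold.

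The mitochondrial ribosome, which makes the subunits encoded in mitochondrial DNA, had 7 proteins higher and 12 lower among 73 tested of 78 listed (26.0%, near the 25.9% of all genes), with a median of -0.04. The smallest p-values were those of Mrpl45 (log2 0.81, adjusted p = 3.1e-06), Mrps24 (-0.67, adjusted p = 0.00021) and Mrpl4 (-0.62, adjusted p = 0.00081), each with no overlap. In the tricarboxylic acid cycle, 1 of 13 genes was higher and 1 lower (15.4%). Dlst, the acyltransferase of the 2-oxoglutarate dehydrogenase complex, rose by 0.49 (SE 0.10, adjusted p = 0.00047), and Idh3a, of NAD-dependent isocitrate dehydrogenase, fell by 0.39 (SE 0.14, adjusted p = 0.039). The call for Idh3a was lost without control 2 or RANKL 1, 3 or 4 (adjusted p between 0.096 and 0.14) and in the DESeq2 Wald test (adjusted p = 0.084).

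Of 8 carriers and channels that feed ATP synthase, Vdac2 (0.32, adjusted p = 0.015) and Slc25a4, an ADP/ATP carrier (0.42, adjusted p = 0.033), were higher and Vdac1 (-0.28, adjusted p = 0.039) was lower. Among 8 tested genes of cristae organisation, Immt, the central scaffold of the cristae junctions, was lower (-0.38, adjusted p = 0.0075), and among 8 of mitochondrial redox defence the thioredoxin Txn2 was lower (-0.39, adjusted p = 0.034). Calls of these 5 genes other than Immt depended on single libraries. Vdac2 lost its call without control 3 or RANKL 2 (adjusted p = 0.052 and 0.057), Slc25a4 without control 3 or RANKL 1, 3 or 4 (0.054 to 0.13), Vdac1 without any library other than control 2 and control 3 (up to 0.15) and Txn2 without any other than control 2, control 4 and RANKL 3 (0.062 to 0.14). With the library total as a covariate none of the 5 was called (adjusted p between 0.051 and 0.57), and Txn2 stood at -0.15. The DESeq2 Wald test did not call Slc25a4 or Txn2 (adjusted p = 0.07 and 0.082). Of cytochrome c and the subunits outside the naming rule, 4 of 6 were tested and Cyc1 was the only call.

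Cell type markers were read in the same libraries. The 12 enterocyte markers gave 1 higher and 1 lower, with summed levels of 13293 to 17097 CPM in controls and 12430 to 13745 CPM with RANKL. Of 7 tested stem cell markers 1 was higher and 3 were lower, and their sums were 1950 to 2411 and 1712 to 1900 CPM. All 6 tested M cell markers of 9 listed were higher, with sums of 54.2 to 61.1 and 1878 to 2138 CPM, while the mature marker Gp2 was at 0. The filter on low counts can keep a gene through the RANKL libraries alone. A marker near 0 in controls could thus be tested only if it was higher with RANKL, and the count of M cell markers is a description. Of all genes tested, 13.6% were higher and 12.4% lower. Paneth and goblet markers gave 0 calls among 6 and 7 tested, enteroendocrine markers 3 higher and 0 lower of 8, and 1 of 6 tuft markers was tested, without a call. The 12 non-epithelial markers summed to 18.8 to 48.2 and 17.2 to 35.5 CPM, with Cd3e and Cdh5 at 0. The part of a changed cell composition in the results on the subunit genes was not tested.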

How the data were processed

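The authors trimmed the reads of 8 QuantSeq libraries with BBDuk, used bowtie2 to discard reads matching rDNA, mitochondrial DNA, phiX or adapter sequence, and mapped what remained to GRCm38 (mm10 in the submitters' processing notes) by STAR and counted them per gene with featureCounts, using the strand. The deposited values are these raw counts, without normalization. Symbols, coordinates and overlaps came from GENCODE M21 on the same build, which matched 54495 of 54532 identifiers.

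Groups follow the treatment label. edgeR 4.0.16 (R 4.3.3) was fitted over all 9971 genes left by filterByExpr, with TMM factors, a quasi-likelihood test and Benjamini-Hochberg adjustment at 0.05. CPM use TMM-scaled totals, and the SE is that of the log2 fold change. Permutation tests are exact and two-sided over 70 assignments. Alternatives were DESeq2 1.42.0 (size factors, and its Wald test), limma 3.58.1 (voom), library totals alone, other filters, a replicate block, the library total as a covariate, each library left out, and an adjusted p of 0.01. Leaving out a library keeps 3 against 4.

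In data simulated from these libraries (200 of 9923 genes changed), edgeR recovered 98 of 100 genes changed 2-fold and 43 of 100 changed 1.4-fold, with 6 false calls, and it made 0 calls where no gene was changed. The changed genes were drawn only from those above a minimum mean count, so recovery of genes with fewer counts was not measured. The share changed was also smaller than the 25.9% of genes called in the data.

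The members and lists were chosen with earlier results of these data known. Named genes are the members past the threshold, the member with the highest CPM of each class, complex II, the related members, the isoform families, members under the filter, and up to 3 called genes with the smallest p per pathway list. Ndufs3, Ndufs8, Ndufa1, Ndufb3, Ndufa4, Uqcr11, Uqcrfs1, Atp5a1, Atp5b, Atp5j, Cox5a, Cox5b, Sdhaf2, Sdhaf3, Sdhaf4, Ppargc1a, Gabpb1, Nrf1, Yy1 and Esrra are outside that rule and were added after their values were seen. The values of 1 tested member, which enters the counts, medians and sums, are not reported here. Promoters are from RefSeq.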

Additional observations from a re-analysis of the deposited data

Results flagged for a closer look

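In 4 of 78 groups of 4 libraries of the named genes, the highest or lowest library stood apart from the other 3 by Dixon's criterion for 4 values (95%), where chance gives about 1 in 20, or 3.9. Sdhd had 55.0 CPM in control 1, with the next control at 11.0 CPM. Ndufb9 had 702 CPM in RANKL 4, with the next at 583 CPM. Uqcrh had 1675 CPM in RANKL 4, below the next at 1910 CPM. Slc25a4 had 33.5 CPM in control 3, below the next at 46.4 CPM. The causes were not tested.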

How the results depend on the processing

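Against 3 higher and 7 lower members, the replicate block gave 6 higher and 7 lower, the library total as a covariate 6 and 3, library totals alone 4 and 4, and an adjusted p of 0.01 gave 1 and 2. With single libraries left out, the higher count ran from 0 to 8 and the lower count from 3 to 7. The share of all genes called was not taken in these fits, so a shift of the members cannot be told from a general change in calls. Sdhd, with a log2 fold change of 0.16, reached 0.75 (adjusted p = 0.028) under the block. Deviations of same-numbered libraries from their group means correlated at -0.00724, -0.0334, 0.101 and 0.0350, and those of different numbers between -0.134 and 0.086. The labels do not say whether the numbers pair the libraries, and such correlations cannot tell. Of the medians, that of all members moved to 0.09 with the covariate, that of complex I to 0.03 with at least 10 counts in every library, and that of cristae genes to 0.05 and 0.02 in these fits. Leave-one-out medians ran from -0.05 to 0.07 for assembly factors and from -0.09 to -0.02 for the mitoribosome. Of the 64 tested members not past the threshold, 7 were called in some of the 16 other fits and 57 in none. The cause was not tested where a call changed. Depth limits the low genes, since 3 counts are worth 5.14 CPM in control 4.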
